A study of Mus musculus with 468 samples.

Results

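The 200 most stable transcripts of mouse adipose tissue were the genes whose share of the library varied least from mouse to mouse. For every gene, CPM (expected counts divided by the library's total count, times 1000000) was averaged over all libraries, and genes on chromosomes 1 to 19 with a mean of at least 30 CPM were ranked by SD/mean, the SD of CPM divided by its mean. Symbols that begin with Rpl, Rps, Mrp, Nduf or Slc25a were left out. Of 23180 genes in the counts, 5258 were eligible under this rule, and the 200 with the lowest SD/mean (3.804% of the eligible genes) are the members described here. The members were chosen by SD/mean and mean level over all libraries, so SD/mean is given as a description and with no test.

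The RNA was adipose RNA of Diversity Outbred mice, in which the genomes of several inbred founder strains are mixed by outbreeding, all fed a high-fat, high-sugar diet in which fat gave 45 percent. The methods of the study name the tissue as the gonadal fat pad. There was 1 library per mouse and a single group, and the labels carry a mouse number and a library number but no sex, generation, age or batch. An SD over libraries therefore holds the differences between mice together with the error of the assay.

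Every cell must keep up a basic supply of proteins: degrade them through ubiquitin and the proteasome, sort them through vesicles, translate and process RNA, and maintain its mitochondria. Genes for these tasks are often called housekeeping genes, and some of them serve as references in expression assays. The proteasome is a barrel of protease subunits (Psma and Psmb) capped by a regulatory particle of ATPases (Psmc) and other subunits (Psmd, Adrm1), and ubiquitin ligases decide which proteins reach it.

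Total expected counts lay between 35.3 M and 137.8 M, with a median of 82.04 M. The adipocyte markers fixed for the tissue were abundant, with a median of 9548 CPM for Fabp4, the fatty acid carrier of fat cells, and 80660 CPM for Scd1, a fatty acid desaturase. Y chromosome counts were present in 51.5% of the libraries and absent from 48.5%, and correlations across libraries are given within each of these sets. In bulk tissue, fewer cells of a type and less RNA per cell cannot be told apart. The libraries of mice DO405 and DO360 stood apart: CT010467.1, a gene model of ribosomal RNA sequence, took 28.4% and 19.2% of their counts, against at most 6.27% elsewhere and a median of 1.82%. The mean log2 level of the members was lower by 0.87 and 0.56 in these libraries than in the median library, and lay between -0.20 and 0.24 of it in all others. Of the 200 members, 190 had their lowest CPM in DO405. Without both libraries, 96.5% of the members were chosen again.

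The rule used no sequence, so the members' promoters were read as a separate measure. Start regions from 250 bases before to 50 bases after the first listed start were taken from RefSeq (GRCm38.p6), and 81% of the members matched one by symbol. The letters CCGGAAG, searched on both strands and read on the other strand as CTTCCGG, are the core recognised by ETS transcription factors, a family known to bind many promoters of housekeeping genes. They stood in 55 member promoters (33.95%), in 18.2% of 4117 eligible promoters and in 9.12% of all 27025 promoters in the table. Windows of 30 bases are shown for 14 members because they carry the letters close to the start, or belong to the proteasome group that the later results turn on. Capitals mark the ETS letters, and each window is written along the gene's own strand.
Psmd2, chr16:20651614-20651643, plus strand: atccgcagggcgCTTCCGGtctggaggaca
Psmd12, chr11:107479499-107479528, plus strand: atgagcgggcgaCTTCCGGtgcgagtgacg
Psmd11, chr11:80428592-80428621, plus strand: gcgagggcgggtCTTCCGGgtgtgtgtttc
Psmc6, chr14:45329712-45329741, plus strand: gaggcgggccagCCGGAAGgggcggagcca
Adrm1, chr2:180171597-180171626, plus strand: gccaagcacgggCTTCCGGcgaggcccggc
Psme3, chr11:101316203-101316232, plus strand: gctgtgacgcaaCTTCCGGcgtgagcggcg
Ociad1, chr5:73292792-73292821, plus strand: tcaagggtactgCTTCCGGgtgtcggcctg
Strap, chr6:137735074-137735103, plus strand: cgccagtcgtcaCTTCCGGctgacgcgacg
Tomm70a, chr16:57121694-57121723, plus strand: gcatgccccgggCTTCCGGtgacctctggc
Arih2, chr9:108649400-108649429, minus strand: ggtcgacccctaCCGGAAGtgacgcgcggc
Cops7a, chr6:124965514-124965543, minus strand: gcggaagtacggCCGGAAGctggccataga
Dpp8, chr9:65032417-65032446, plus strand: gggctcggggaaCCGGAAGtgccgaggcct
Ddx50, chr10:62651214-62651243, minus strand: gaggtgcgtggcCCGGAAGtgacgcacggt
Golga2, chr2:32288260-32288289, plus strand: gagaagccgtagCTTCCGGAAGcagtttcg

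In Golga2, a Golgi matrix protein, the letters of both strands overlap and form a palindrome. The 55 promoters held 69 copies, and 43 of the copies lay within 60 bases of the start. Among promoters of the listed proteasome subunits that were members, 6 of 10 held the letters, and among all eligible subunits of the list 12 of 29 (41.4%).

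The share of promoters with the ETS letters fell along the whole ranking of SD/mean and did not stop at the members. It was 33.5% in the 200 genes ranked after the members, 24.8% from there to rank 1000, 22.9% at ranks 1001 to 2000, 18.9% at ranks 2001 to 3000, 14.6% at ranks 3001 to 4000 and 7.33% of 900 promoters at ranks 4001 to 5258. CpG content moves with the ranking too: the median ratio of observed to expected CpG was 0.883 in member promoters and 0.806 in eligible ones. Within promoters whose ratio was at least 0.6, the share of ETS letters was 34.2% for the members, 34.5% for the next 200 genes and 10.2% for the last ranks. Other letters differed less from the eligible promoters. The GC box GGGCGG was in 74.7% of member and 70.5% of eligible promoters, the CCAAT box CCAAT in 36.4% and 37.6%, the antioxidant response core TGACNNNGC in 17.3% and 15.4%, the E-box CACGTG in 11.7% and 10.9%, and the TATA letters TATAAA in 4.32% and 6.85%. The NRF1 letters CGCATGCG were in 6.79% and 4.18%, and the CREB letters TGACGTCA in 4.94% and 3.28%. These are matches of letters, not measured binding, and no test was made.

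**Figure D1:**
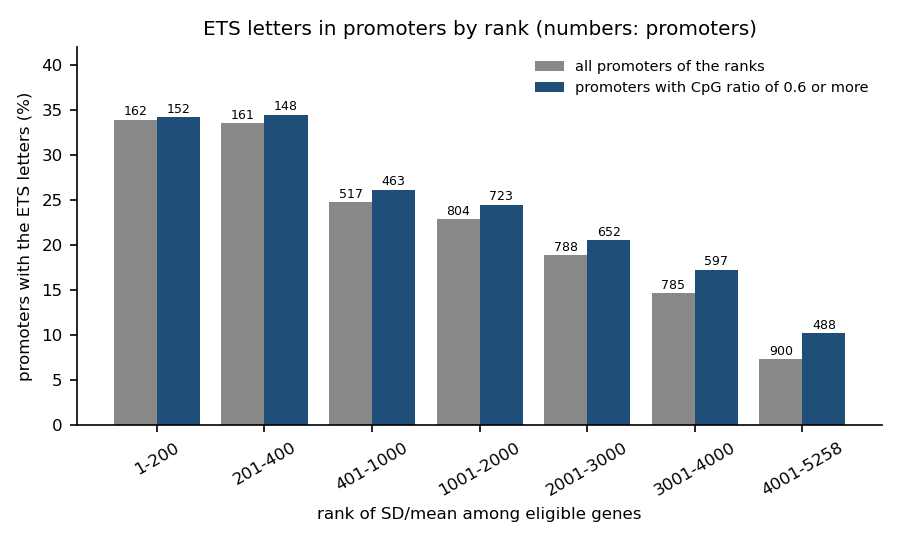
Share of promoters (percent, y axis) that hold the ETS letters on either strand, by rank of SD/mean among eligible genes (x axis), for all promoters of the ranks (grey) and for those with a CpG ratio of at least 0.6 (blue); numbers over bars are promoters. The share is 33.95% for the members and 33.5% for the next ranks, and 7.33% at the least stable end.

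SD/mean of the members ran from 0.0708 to 0.102 (median 0.0948). The eligible genes had a median of 0.197 and a maximum of 20.8, and the next 200 genes lay between 0.102 and 0.112, so no gap separated the members from the genes behind them. Just inside the limit were Vdac3 and Dnajc5 (both 0.101) with Qrich1, Fam149b and Rfc1 (all 0.102). Just outside were Cog7, Gtf3c4, Wdr77, Psma6 and Skp1a (all 0.102). The ratio of the 95th to the 5th percentile over all libraries was between 1.23 and 1.40 in each member (median 1.34). Counting error, with every count taken as independent, made up a median of 2.14% of the variance (0.393 to 4.67%). Each member drew at least 2593 counts per library on average. Read ends were aligned singly, so both ends of a fragment can be counted, and this share of counting error is a low estimate.

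The lowest SD/mean belonged to Nap1l4 (chr7:143513579-143549106, GRCm38), a histone chaperone of the nucleosome assembly family. Its lowest CPM was 48.6, the median 100.4 and the highest 119.1, with a mean of 100.7 ± 7.12 (SD over all libraries). Ociad1, a protein of mitochondria and endosomes, ran from 66.1 to 152.1 CPM with a median of 122.7. Cul4a, the scaffold of a cullin ubiquitin ligase, ran from 61.9 to 156.5 CPM with a median of 109.6. Each of these low ends was the library of DO405, and the range from the 5th to the 95th percentile was far narrower, 90.8 to 112.4 CPM in Nap1l4. Rhot1, a mitochondrial GTPase that ties mitochondria to microtubule motors, had a median of 58.96 CPM (31.8 to 72.4). Vapb, a tether of the endoplasmic reticulum to other membranes, had a median of 116.5 CPM (65.6 to 140.7). Strap, an RNA-binding partner of the SMN complex, had a median of 71.7 CPM (32.1 to 114.5), and its highest value was in DO180. Next came Ipo8, a nuclear import receptor (SD/mean 0.0782), Paip2, an inhibitor of poly(A)-binding protein (0.0789), Nf2, the tumour suppressor merlin (0.0793), and Ube3c, a ubiquitin ligase bound to proteasomes (0.0793). All 10 were lowest in DO405.

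Mean levels spread widely among the members, from 31.3 to 480.95 CPM with a median of 67.9, close to the 64.7 CPM of the eligible genes. CPM is not scaled by gene length, so it ranks reads and not molecules. The highest were 2610507B11Rik (480.95 CPM), Prpf8, the central protein of the spliceosome (330.7), Eif5, a translation initiation factor (242.7), Tmed2, a cargo receptor of vesicle coats (238.3), and Rnf10, a ubiquitin ligase (223.5). The lowest were Lamtor2, a lysosomal scaffold of mTORC1 signalling (31.3), Fam149b (31.5), Ppme1, a phosphatase methylesterase (31.5), Drg2, a ribosome-associated GTPase (31.6), and Dnajc16, a J-domain cochaperone (31.96). Together the members held 1.69% of all counts on average.

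**Figure D2:**
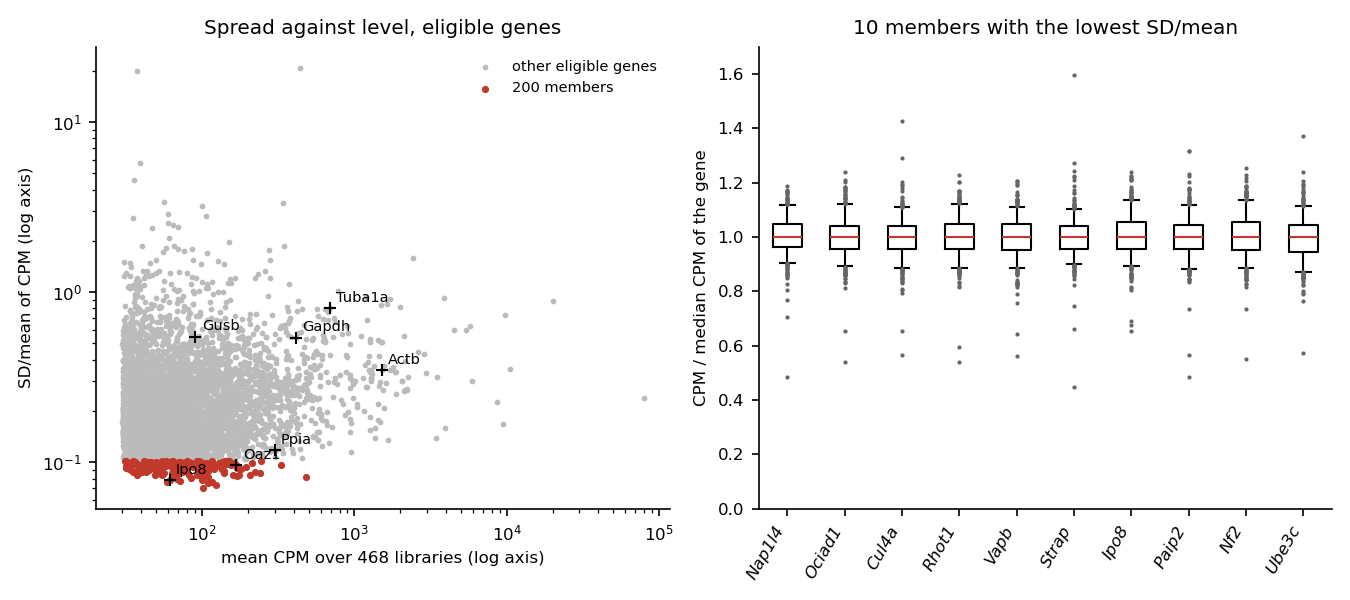
Left, SD/mean of CPM (y axis, log scale) against mean CPM over all libraries (x axis, log scale) for eligible genes (grey), the 200 members (red) and named reference genes (crosses). Right, CPM divided by the gene's median for the 10 members with the lowest SD/mean; boxes are quartiles, whiskers the 5th and 95th percentiles, and the lowest points are DO405.

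All 200 members were protein-coding genes (98.3% of the eligible). By roles assigned by hand from general knowledge, the largest group was ubiquitin and ubiquitin-like pathways with 38 members (19%), then membrane traffic with 28 (14%), kinases, phosphatases and signalling with 18, translation with 15, transcription and chromatin with 15, the proteasome with 14, metabolism and transport with 13, RNA processing with 11, mitochondria and peroxisomes with 11, protein folding and membrane insertion with 9, nuclear transport with 5, autophagy with 4 and the actin cytoskeleton with 3. No role was assigned to 16.

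The ubiquitin group was made of ligases and their scaffolds rather than of ubiquitin itself. It held the cullins Cul2, Cul3 and Cul4a, the cullin adaptors Keap1, Spop, Crbn and Btbd1, the RING-between-RING ligases Arih1 and Arih2, and the NEDD8-activating subunit Uba3, which charges the cullin activator. It also held 4 subunits of the COP9 signalosome, which removes NEDD8 from cullins (Cops3, Cops6, Cops7a and Cops8), the deubiquitinases Usp8, Usp14 and Bap1, and the Vcp cofactors Nploc4, Plaa, Faf1 and Ubxn1. Vcp, the segregase they serve, sat outside the limit (0.105). Of the list of ligases, conjugating enzymes and deubiquitinases, 18 were members, 12.3% of its eligible genes against 3.804% of all eligible genes. This list and those that follow were chosen with earlier results of these data known, so their shares are descriptions and no test was made.

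The list of proteasome and chaperonin subunits gave 13 members of 44 eligible (29.5%), the highest share of any list, and its median SD/mean was 0.109. All 13 were proteasome genes: the core subunits Psma4, Psmb4 and Psmb7, the ATPases Psmc5 and Psmc6, the regulatory subunits Psmd1, Psmd2, Psmd3, Psmd7, Psmd11 and Psmd12, the ubiquitin receptor Adrm1, and Psme3, a nuclear activator cap. Translation factors gave 9 members of 56 (16.1%), among them Eif5, Eif5b, Eif3b, Eif4h and the release factor Etf1. Nuclear pore and transport genes gave 4 of 37 (10.8%) and phosphatase subunits 4 of 37. Autophagy gave 3 of 34 (8.82%), endosome and ESCRT genes 6 of 80 (7.50%), and vesicle coats and Golgi tethers 5 of 73 (6.85%). The messenger RNA decay list gave 2 of 24, DNA repair 2 of 20, and RNA polymerase II with its general factors 2 of 31.

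Shares under the 3.804% of all eligible genes came from the splicing list, with 1 of 62 (1.61%, Prpf8), and the chromatin list, with 1 of 86 (1.163%, Brd7, a bromodomain subunit of a remodelling complex), and the lists of hnRNP proteins (28 eligible), cytosolic aminoacyl-tRNA synthetases (18), 3-prime end processing (16) and the vacuolar ATPase (14) gave 0. At the overall share, lists of this size would hold about 1 member or none, so nothing is read from the zeros, and the same holds for the small lists that follow. Markers of cell types gave 0 members: adipocytes 0 of 15 (median SD/mean 0.266), macrophages 0 of 12 (0.674), endothelium 0 of 11 (0.216), progenitors and fibroblasts 0 of 12 (0.381), mesothelium 0 of 4 and skeletal muscle 0 of 1. Oxidative phosphorylation outside complex I gave 0 of 35 (0.340) and immediate early genes 0 of 6 (0.307). No gene of the T cell, B cell and epididymis lists and none encoded by mitochondrial DNA was eligible.

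Of genes often used as references in expression assays, 5 of 32 eligible were members (15.6%). Among them were Ipo8 (SD/mean 0.0782), Emc7, a membrane insertase subunit (0.0961), Oaz1, the inhibitor of ornithine decarboxylase (0.0964), and Psmb4 (0.1001). Ppia, cyclophilin A, stood outside (0.117). The classical references varied more than the median eligible gene: Actb 0.349 (rank 4306), the glycolytic enzyme Gapdh 0.539 (4904), Gusb, a lysosomal glucuronidase, 0.547 (4917), and Tuba1a 0.804 (5120).

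Genes chosen in one set of mice stayed low in a disjoint set. When 200 genes were chosen by the same rule in the mice with odd numbers, their median SD/mean was 0.0943 in those mice and 0.0942 in the mice with even numbers, where the eligible genes had a median of 0.199. Of them, 93.5% fell in the lowest 10% of eligible genes in the even mice. Chosen in the even mice, the median of 0.0931 became 0.0957 in the odd mice (eligible 0.194), with 97.5% in the lowest 10%. The lists from both sets shared 76.5% of their genes.

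Stability depended strongly on how library totals were set. CPM divides by the plain total, whereas TMM (a factor from edgeR that discounts genes that differ most between libraries) and the size factors of DESeq2 scale to the bulk of the genes. Under TMM, only 21 of the 200 were chosen again, under DESeq2 20, and by the SD of the deposited VST values (a log2 scale with variance made even) 22. Median SD/mean of the members was 0.112 under TMM, still under the eligible median of 0.179 but above the 0.0776 of the 200 genes that TMM itself ranked lowest. Their median rank became 948.5 of 5258, the highest 2511, and 57 stayed in the lowest 10%. Nap1l4 moved from rank 1 to 1385, Ociad1 from 2 to 1243 and Rhot1 from 4 to 1487, and Cul4a and Vapb also left the lowest 200.

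Under all 4 scalings 19 genes were among the lowest 200. Among them were Glyr1, a nucleosome-binding cofactor (rank 17, and 49 under TMM), Eif4h, a helicase cofactor of initiation (25 under plain totals), Rab12, Tsnax, Ctbp1, Tmem59, Cops8, the endosomal GTPase Rab5b (15 under TMM), Spop, Flii, Zc3h15, Slc35e1, Ist1, the kinase cochaperone Cdc37, the SUMO protease Senp3 (24), Ppp6r3, a regulatory subunit of phosphatase 6 (28), Dnajc5 and Rfc1. The kind of gene changed as well. The proteasome and chaperonin list went from 13 genes among the lowest 200 to 0 under TMM, DESeq2 and VST, the ubiquitin list from 18 to 8, 8 and 9, and the splicing list from 1 to 14, 13 and 14. Chromatin genes went from 1 to 10, 10 and 9, and translation factors from 9 to 6 in each. ETS letters stayed frequent, at 27.7%, 27.3% and 27.9% of promoters. Tox4, a chromatin protein, was lowest under TMM (0.0584), followed by Cnot2, of the deadenylase complex (0.0598), and Sf3b1, of the spliceosome (0.0599), and none of these 3 was a member.

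The TMM factor itself moved with the members and with splicing genes. It ran from 0.578 to 1.36 (median 1.01). Its log2 correlated with the mean log2 CPM of the members at r = 0.755 (rho 0.629, 0.641 without the 2 libraries farthest from the median) in libraries with Y chromosome counts and 0.758 (rho 0.713, 0.762 without 2) in those without. With the splicing genes r was 0.902 (rho 0.869, 0.859 without 2) and 0.935 (rho 0.922, 0.928 without 2). With oxidative phosphorylation genes it went the other way, at -0.0990 (rho -0.317, -0.361 without 2) and -0.758 (rho -0.798, -0.803 without 2). These correlations share the plain total, so they describe the scales and no p is given.

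**Figure D3:**
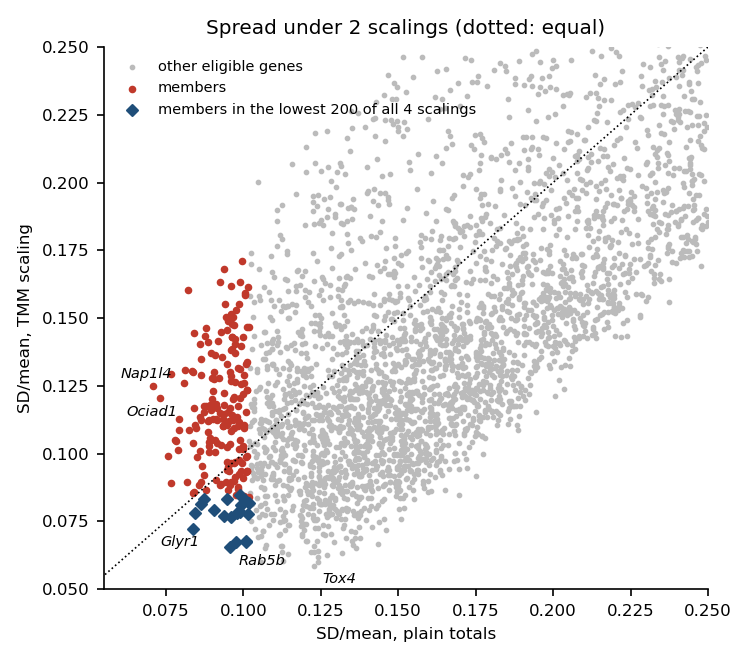
SD/mean under plain totals (x axis) against SD/mean under TMM scaling (y axis) for members (red), the 19 members among the lowest 200 of all 4 scalings (blue diamonds) and other eligible genes with SD/mean under 0.25 (grey); the dotted line marks equal values. The median member lies at 0.0948 on the x axis and 0.112 on the y axis.

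With the members scaled by plain totals, most pairs rose and fell together. Over 19900 pairs the median Pearson r of log2(CPM + 1) was 0.279, 18869 pairs were above 0 and 1822 above 0.5. The median was 0.302 in the libraries with Y chromosome counts and 0.272 in those without. DO405 and DO360 carried much of it, and without both the median was 0.175. The next 200 genes of the ranking had a median of 0.290. The mean member level fell as CT010467.1 took a larger share (r = -0.776 and -0.587 with and without Y chromosome counts, rho -0.290 and -0.318), which rested largely on 2 libraries, since r was -0.290 and -0.354 without the 2 farthest. It also fell as the 20 most abundant genes took a larger share of the counts (r = -0.605 and -0.771, rho -0.464 and -0.740, and -0.449 and -0.763 without 2). With total depth r was 0.137 and 0.112. Parts of a fixed total must give way to each other, and how much of the shared movement this makes was not tested.

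To see what remained, each library was centred on the mean log2 CPM of its 200 members, which removes any factor common to a library. The median pair r became -0.0059, as centring forces it towards 0, with 5% of pairs under -0.317 and 5% over 0.311. Between the mice with odd and even numbers the 19900 centred r values correlated at 0.877 (across pairs, which share genes). The 100 pairs highest in the odd mice had a median r of 0.521 there and 0.492 in the even mice, with none under 0.286.

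The strongest centred pair was Psmd12 with Psmb7, a lid subunit and a catalytic subunit of the proteasome (r = 0.648 with and 0.632 without Y chromosome counts). Psmd2 with Psmd1, the base scaffolds of the regulatory particle, followed (0.550 and 0.708), and Psmd3 with Adrm1 was also among the first 10 (0.521 and 0.635). Mff, which recruits the mitochondrial fission GTPase, paired with Vdac3, an outer membrane channel of mitochondria (0.547 and 0.595), and Cops3, of the COP9 signalosome, also paired with Vdac3 (0.569 and 0.509). Sacm1l, a phosphoinositide phosphatase, paired with Uba3 (0.612 and 0.595), Arih1 with the elongation factor Tcea1 (0.599 and 0.614), and Rab5b with Flii, an actin regulator (0.455 and 0.6004). Gsk3a, the kinase of glycogen synthase, paired with Mfn1, a mitochondrial fusion GTPase (0.213 and 0.687), and with Ppme1 (0.363 and 0.631), and these pairs were much weaker in the libraries with Y chromosome counts. The most opposed pairs were Rab5b with Mfn1 (-0.368 and -0.545), the Golgi kinase Stk16 with Etf1 (-0.453 and -0.403), Gsk3a with Etf1 (-0.497 and -0.419), Trpc4ap, a ligase adaptor, with Uba3 (-0.602 and -0.648), and Plaa with Arpc1a, of the actin nucleating complex (-0.645 and -0.525). This opposition was seen mainly after centring. Over all libraries 31 centred pairs were under -0.5, but before centring 0 were, and the lowest r was -0.280. The 5 opposed pairs named lay between -0.239 (Rab5b with Mfn1) and -0.0507 (Plaa with Arpc1a) before centring. None of the 15 pairs named lay within 1 Mb of each other. Of 39 pairs that did, the highest was Mlf2 with Cops7a (0.494 over all libraries) and the lowest Cops3 with Flii (-0.393).

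Only a few roles moved as groups. The median centred r within a role was 0.303 in the proteasome, 0.171 in autophagy, 0.131 in mitochondria and peroxisomes, 0.118 in translation and 0.0676 in RNA processing. It was 0.0223 in membrane traffic and -0.0139 in the ubiquitin group, the largest role.

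The proteasome subunits were the clearest group. The median r among the 13 listed members was 0.312 in libraries with Y chromosome counts and 0.370 in those without, against -0.0317 and -0.0302 with the other members, and it was 0.324 in odd and 0.340 in even mice. The 22 eligible subunits that were not members behaved likewise, with 0.294 and 0.345 among themselves. Psmd2, the scaffold subunit, ran from 108.4 to 293.8 CPM with a median of 206.8. Psmd12 ran from 30.9 to 85.5 CPM with a median of 62.97. Psmb7 ran from 42.1 to 115.5 CPM with a median of 87.9. In each, the lowest value was DO405. Relative to the members' mean, the mean of the 13 ran from -0.21 to 0.24 on the log2 scale (SD 0.0695 over all libraries), a small range.

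Each subunit was set against the mean of the others, left out of its own mean. Psmd12 was highest of the members in both sets (r = 0.760 and 0.775). Psmd2 (0.639 and 0.689), Psmd1 (0.636 and 0.680), Psmb7 (0.628 and 0.638), Adrm1 (0.613 and 0.632), Psmc5 (0.570 and 0.618) and Psmd3 (0.491 and 0.673) came after it, in an order that differed between the sets. Psmd7, Psmc6, Psma4, Psmb4 and Psmd11 lay between 0.338 and 0.592 in both sets. Psme3 stood aside (0.0451 and 0.0161). It encodes PA28 gamma, a cap that needs neither ATP nor ubiquitin, and not a subunit of the 26S particle. Among subunits that were not members, Psmd14, the deubiquitinase of the lid, reached 0.645 and 0.771, and Psme4, an alternative cap, was lowest at 0.123 and 0.2001. In the libraries with and without Y chromosome counts, 17 and 21 of these 22 exceeded the 95th percentile of all eligible genes (0.313 and 0.269).

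Several of the eligible genes off the list with the highest r against the subunit mean encode enzymes of lipid synthesis. The first 5 over all libraries were Fdps, which makes farnesyl diphosphate (0.456 and 0.730 in the libraries with and without Y chromosome counts), Ran, the GTPase of nuclear transport (0.525 and 0.693), Acss2, which activates acetate (0.589 and 0.574), Agpat2, an enzyme of triglyceride synthesis (0.639 and 0.527), and Pgd, which supplies NADPH (0.458 and 0.639). Me1, Idi1, Pmvk, Acat2 and Acly were among the first 15, and so was the member Cops3 (0.486 and 0.516). After these values were seen, 16 genes of cholesterol synthesis and uptake and 10 of fatty acid synthesis and NADPH supply were read from the same libraries. These sets contain the genes just named, so their values describe the pathways and add no support. The cholesterol genes had a median r of 0.317 and 0.424. The fatty acid genes had medians of 0.439 and 0.427, from 0.231 to 0.589 and from 0.319 to 0.639, and included Acly (0.585 and 0.509), Fasn (0.536 and 0.392) and Scd1 (0.314 and 0.399). Among the most negative genes were Marf1 (-0.581 and -0.595), Evi5, Chd2, a chromatin remodeller, and Ddx17, an RNA helicase (-0.505 and -0.560). Among marker scores the subunit mean had the largest r with the mesothelial one (-0.367 and -0.281). It gave 0.230 and 0.256 with adipocyte, -0.204 and -0.258 with B cell and -0.0928 and -0.130 with macrophage markers. With oxidative phosphorylation genes r was 0.421 and 0.197. All these r are across libraries centred on the same member mean, and their part in the relation was not tested.

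**Figure D4:**
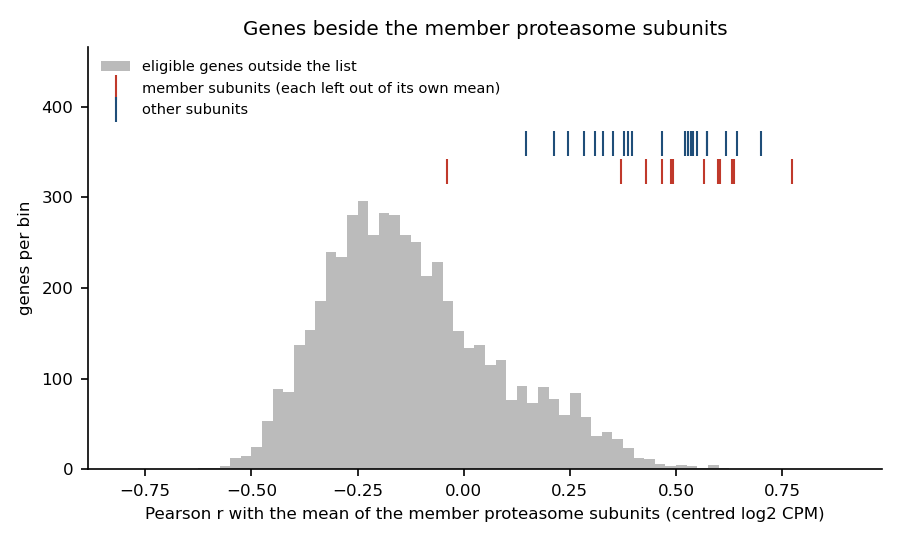
Histogram of the Pearson r of each eligible gene outside the list with the mean of the 13 member proteasome subunits over all libraries (x axis, centred log2 CPM; y axis, genes per bin), with ticks for member subunits (red) and other subunits (blue). All subunits lie to the right of the median of all eligible genes, subunits included, -0.151, and the leftmost is Psme3 at -0.038.

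Principal components of the centred, z-scored members spread the remaining variance thinly, with 10.9, 9.18, 9.02, 6.63 and 4.10% on the first 5. The loadings returned in odd and even mice: PC1 with PC1 at 0.806, the odd PC2 with the even PC3 at 0.923 and the odd PC3 with the even PC2 at 0.813 (absolute r across 200 genes). PC2 and PC3 thus held nearly equal shares and largely changed places. The components also mixed: the odd PC1 gave 0.486 with the even PC2, and the odd PC3 gave 0.4995 with the even PC1. The library of DO283 had the widest spread of centred members (SD 0.332 on the log2 scale against a median of 0.108), and without it PC1 held 11.03% of the variance.

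At its ends, PC1 set among others Gsk3a (loading 0.718), Stk16 (0.709), the aminopeptidase Npepl1 (0.696), Psmb7 (0.663), Mlf2 (0.646), Psmd11 (0.585), the farnesyltransferase subunit Fnta (0.572), Ubxn1 (0.565) and Mfn1 (0.565) against Ppp6r3 (-0.664), Etf1 (-0.646), Rab5b (-0.636), Dnajc5 (-0.572), Spop (-0.555), Zfp664 (-0.537), Zc3h15 (-0.529), the tankyrase Tnks2 (-0.525) and Wac (-0.484). No member belongs to oxidative phosphorylation, yet the PC1 score followed it. With the mean z-score of 35 oxidative phosphorylation genes outside complex I, centred on the same member mean, r was 0.756 in libraries with Y chromosome counts (rho 0.749, 0.741 without the 2 farthest) and 0.890 in those without (rho 0.881, 0.885 without 2). Cell markers moved with it too, and unequally. The macrophage score gave r = -0.423 and -0.695 (rho -0.441 and -0.699, -0.407 and -0.689 without 2), the adipocyte score 0.456 and 0.0761 (rho 0.501 and -0.0462, 0.478 and 0.0252 without 2), the progenitor and fibroblast score -0.429 and -0.633 (rho -0.416 and -0.607, -0.424 and -0.608 without 2), the mesothelial score -0.127 and -0.515 (rho -0.0958 and -0.481, -0.102 and -0.494 without 2), and the endothelial score -0.0225 and -0.599 (rho -0.0225 and -0.599, -0.0300 and -0.583 without 2). The share of counts of the 20 most abundant genes gave 0.387 and 0.7005 (rho 0.512 and 0.727, 0.526 and 0.743 without 2). Genes encoded by mitochondrial DNA gave 0.345 and 0.691 (rho 0.365 and 0.692, 0.317 and 0.708 without 2), and total depth 0.0037 and -0.0312. The part of cell content in PC1 was not tested.

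**Figure D5:**
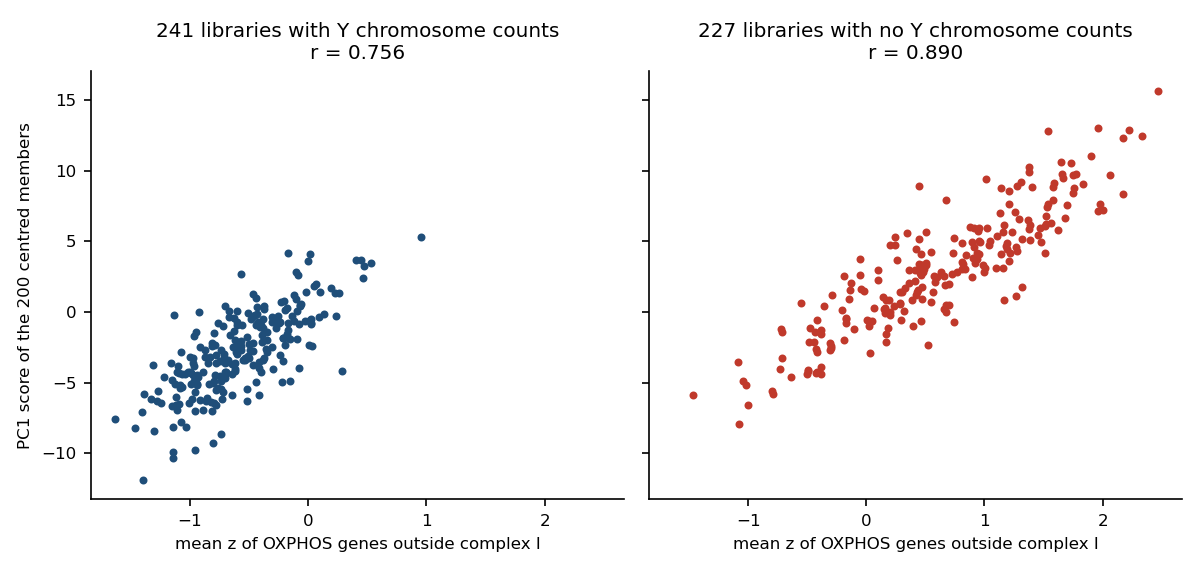
PC1 score of the 200 centred members (y axis, no unit) against the mean z-score of oxidative phosphorylation genes outside complex I (x axis), 1 point per library, for libraries with Y chromosome counts (left) and without (right). The points rise together in both panels, with r = 0.756 and 0.890.

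PC2 set Nmt1, the N-myristoyltransferase (0.693), Psma4 (0.692), Emc7, Asna1, which inserts tail-anchored proteins, Psme3, Ola1, Psmd2, Rnf10, Ufc1 and Tnpo2 (0.506) against Xpo7, an exportin (-0.661), Sos2, an exchange factor of Ras (-0.622), Crbn, Prpf8, the cyclin-dependent kinase Cdk13, R3hdm2, Mkln1, Snx14, Arih1 and Dpp8 (-0.525). PC2 loadings correlated with log transcript length at -0.439 across the 200 genes. The mean z-score of the proteasome and chaperonin list, which holds members, gave r = 0.688 and 0.770 with PC2 (rho 0.678 and 0.757, 0.691 and 0.764 without 2). The macrophage score gave 0.575 and 0.260 (rho 0.641 and 0.240, 0.580 and 0.234 without 2), and the mesothelial score -0.391 and -0.115 (rho -0.424 and -0.0903, -0.378 and -0.0948 without 2). PC3 set Sacm1l (0.809), Ppp6c, the catalytic subunit of phosphatase 6 (0.719), Uba3 (0.700), Cul3, Usp14, Tomm70a, Eif5, Rhot1, Plaa and Cul2 (0.479) against Cdc37 (-0.629), Arpc1a, Trpc4ap, Flii, Eif3b, Pskh1, Eif4h, Eif2b5, Upf1 and Atg4b (-0.496). Its loadings correlated with the GC content of the transcripts at -0.674 across the 200 genes (0.367 for PC1), so AT-rich transcripts sat at one end and GC-rich ones at the other. Mitochondrially encoded genes gave r = 0.424 and 0.559 with PC3 (rho 0.416 and 0.562, 0.438 and 0.540 without 2). Some other scores differed more between the sets. Oxidative phosphorylation genes outside complex I gave -0.142 and 0.293 (rho -0.117 and 0.315), and the share of the 20 most abundant genes 0.182 and 0.565 (rho 0.117 and 0.542). The macrophage score gave 0.0970 and -0.436 (rho 0.0938 and -0.448), and the progenitor and fibroblast score -0.0149 and -0.557 (rho -0.0624 and -0.558). Whether base composition acted through the mice or through the libraries was not tested.

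Xist and the summed Y chromosome genes accounted for little of the members' centred variance, a median of 3.51%, against 12.9% over the eligible genes. The share was above 10% in 47 members and in 57.2% of eligible genes. It was highest in Etf1 (35.8%), Mfn1 (31.4%), Npepl1 (30.1%), Stk16 (29.7%), Golga2 (27.9%) and Gsk3a (26.9%), several of them genes at the ends of PC1. Genes that differ with Y chromosome counts have a larger SD over all libraries, and centring takes out any shift the members share. The lower share in the members thus follows in part from the rule and the centring, and nothing is read from it.

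The members were then tested against mouse number, an order the labels give without saying what it stands for. In edgeR's quasi-likelihood test with TMM scaling and Benjamini-Hochberg adjustment over all 18380 genes tested, mouse and library number fitted together, 33 of the 200 members were called at an adjusted p under 0.05. Among all genes tested 23.7% were called, 11.7% rising and 12.1% falling, and among eligible genes 29.4%, 13% rising and 16.4% falling. The members' share was 16.5%, under both. A trend with mouse number adds to the SD that was low by choice in the members, so a smaller share follows in part from the rule. Nothing is read from it, here or in the fits that follow. All 33 fell with mouse number and 0 rose, with 58 members at an unadjusted p under 0.05, and 82.5% of the members' slopes were negative.

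This direction belonged partly to the scaling. With plain totals, on which the members were chosen, 28 members were called (14%), 11 rising and 17 falling, and 46% of the slopes were negative, while 21.4% of all genes tested were called, 13.4% rising and 8.09% falling. With libraries scaled to the members themselves 39 were called (19.5%), 17 rising and 22 falling, against 23.7% of all genes, 15.4% rising and 8.31% falling. That scaling evens out the members' mean level across libraries, so slopes on both sides of 0 follow from it and add nothing on direction. For Prpf8 it nearly repeated the fit with plain totals, with slopes of -0.0273 and -0.0274 log2 units per 100 mouse numbers. With Xist and Y chromosome genes as covariates 20 were called (10%), 7 rising and 13 falling, close to the 11.8% of all genes, 4.16% rising and 7.68% falling. Called in all 4 fits were 11 members, all falling: Prpf8, Dpp8, Xpo7, Zyg11b, Etnk1, Ube4a, Hbp1, Ecpas, Crbn, Usp8 and Ralgapb. None of the 4 called 73.5% of the members. The slopes that follow are those of the TMM fit without these covariates. Prpf8 fell most, by 0.0325 ± 0.00538 (SE) log2 units per 100 mouse numbers (adjusted p = 7.48e-07 in edgeR's quasi-likelihood test). With plain totals its median was 335.9 CPM in the 94 mice with the lowest numbers (278.3 to 451.1). It was 311.3 CPM in the 93 mice with the highest (244.8 to 389.1), so the groups overlapped widely. Dpp8, a cytosolic dipeptidyl peptidase, fell by 0.0251 ± 0.00470 (edgeR adjusted p = 1.44e-05), with medians of 137.3 and 130.01 CPM in the same mice. The slope was -0.0234 ± 0.00497 in Xpo7, -0.0253 ± 0.00539 in Zyg11b, a substrate receptor of Cul2 ligases, and -0.0243 ± 0.00517 in Etnk1, the ethanolamine kinase. It was -0.0220 ± 0.00487 in Ube4a, a ubiquitin chain elongation factor, -0.0175 ± 0.00409 in Hbp1, a transcriptional repressor, and -0.0229 ± 0.00538 in Ecpas, a proteasome scaffold. With Xist and Y chromosome covariates the slopes of all 11 were smaller, at -0.0213 in Prpf8, -0.0132 in Xpo7 and -0.0124 in Hbp1. Members that rose with plain totals included Lamtor2, Asna1, Psmb4, Ufc1, Oaz1 and Psma4, and none of the rising calls was shared with TMM.

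Against library number 0 members were called by edgeR's quasi-likelihood test, with 25 at an unadjusted p under 0.05, while 0.267% of all genes tested were called. DESeq2 and limma called 0 as well, with 29 and 18 members at an unadjusted p under 0.05. The member with the lowest p was Polr2b, the second largest subunit of RNA polymerase II, with a slope of -0.0123 log2 units per 100 library numbers (adjusted p = 0.396 in edgeR).

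In structure the members were close to the eligible genes. Median transcript length was 3507 bases (eligible 3813) and median GC content 48.4% (49.7%). Another annotated gene overlapped 57.5% of them (eligible 58.1%), on the same strand in 46 (23%, eligible 26.7%). The sources used here do not say whether counting used strand, so reads of overlapping genes, such as Stk16 with Tuba4a, cannot be told apart. By chromosome, the highest shares of eligible genes were 6.80% on chromosome 18 (10 members), 6.20% on chromosome 8 (17), 5.87% on chromosome 5 (22), 5.82% on chromosome 11 (26) and 5.41% on chromosome 2 (24), but 2 on chromosome 17 (0.755%) and 2 on chromosome 15 (0.858%).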

How the data were processed

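Adipose RNA of 468 mice was sequenced with poly(A) selection, 1 library each, and all libraries form 1 group per the labels. Of them, 241 had Y chromosome counts and 227 had none, and 232 had odd and 236 even mouse numbers. The authors deposited expected counts per gene, estimated by EMASE under GBRS after read ends were aligned singly to a transcriptome of the founder strains, with genes under 1 read in many samples removed; shared reads were split by expectation maximization. For the versions and for strand, the sources used here state nothing, and the labels name GRCm38. The authors also deposited log2-scale values of a variance stabilizing transformation by DESeq2, used only as an alternative. The authors' gene positions in megabases (a table with other contents) matched GENCODE M21 for 199 of the 200 members, from which exact coordinates came, and 162 members had a RefSeq promoter. The members, roles and gene lists were chosen with earlier results of these data known.

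CPM came from unrounded expected counts and plain totals, and log values are log2(CPM + 1). For each library the mean over the 200 members was subtracted before pair correlations within roles, principal components and marker scores (mean z-scores). Rounded expected counts served for slopes on mouse and library number, fitted per 100 numbers over genes with 10 counts or more in 50% of libraries or more (edgeR 4.0.16, TMM, quasi-likelihood test, Benjamini-Hochberg adjustment over all genes tested), and the test was checked on simulated data. DESeq2 1.42.0 and limma 3.58.1 were alternatives, in R 4.3.3; other steps used Python 3.11.15, numpy 2.4.6, pandas 2.3.3 and scipy 1.17.1. Other alternatives were the scaling, the measure of spread, the level filter, the pseudocount, odd and even mouse numbers, blocks of mouse and library numbers, Xist and Y chromosome covariates, and leaving out DO405 and DO360 or DO283, the last 2 chosen after seeing the data. Genes named are the 10 lowest in SD/mean, 5 on each side of the limit, the 5 highest and lowest in level, the 10 highest and 5 lowest centred pairs, 10 loadings at each end of 3 components, the 8 falling and rising calls with the lowest p, and list members, except a few genes not reported here. The numbers in the labels may stand for batches that are not named there.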

Additional observations from a re-analysis of the deposited data

How the results depend on the processing

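The choice of members depended most on scaling: of the 200 genes, 21 were kept under TMM, 20 under DESeq2 size factors, 22 by the SD of the deposited VST values and 52 when only genes of 100 CPM or more were eligible, which are all the members that reach that mean. The 8 other alternatives kept 72% to 97.5% of them. Median SD/mean was 0.112 under TMM and 0.111 under DESeq2, and 0.0904 to 0.0946 under the 4 others. Median pair r was 0.484 under TMM, 0.474 under DESeq2, 0.475 with VST values, -0.0059 after centring, 0.463 in the first of 5 blocks of library numbers and 0.527 in the fourth of 5 blocks of mouse numbers. The other alternatives moved it by less than the SD over the 5 mouse blocks (0.155), which that mouse block widens, since the other 4 lay at 0.165 to 0.214. Spearman correlation gave 0.169, leaving out DO405 and DO360 0.175, and library blocks down to 0.157. PC1 held 29.8% of the variance without centring and 9.68% after regression on Xist and Y chromosome genes, and 10.9 to 11.3% otherwise. Members called against mouse number were 20 with Xist and Y chromosome genes as covariates and 28 to 39 under the 6 other alternatives. Calls against library number were 0 under all alternatives run. No paired analysis was possible because all libraries form 1 group. Members near the limit differ by less than any of these choices move them, and a spread over mice with 1 library each cannot be split into assay and animal.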
